A study of Mus musculus with 7 samples.

Results

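The genes of oxidative phosphorylation (OXPHOS) were followed in whole testes enriched for preleptotene spermatocytes, the germ cells that stand at the entry into meiosis. Members were the genes whose GENCODE vM21 symbol names a numbered complex I subunit (*Nduf*), a complex III subunit (*Uqcr*), a complex IV subunit (*Cox4* to *Cox8*), an ATP synthase subunit (*Atp5*) or a respiratory protein encoded in mitochondrial DNA (*mt-Nd*, *mt-Co*, *mt-Cytb* and *mt-Atp*). The rule found 93 of the 21928 genes in the tables. Of these, 80 are encoded in the nucleus (37 of complex I, 8 of complex III, 18 of complex IV and 17 of complex V) and 13 in the mitochondrion (7, 1, 3 and 2). It used names only and no measured value. Because it follows symbols, *Cyc1* of complex III, *Ndufab1* of complex I and the complex II genes fall outside it. *Ndufa4* is counted with complex I although its protein is now placed in complex IV, and *Ndufa4l2*, *Cox7a2l* and *Atp5s* are counted although their products are not core structural subunits. Leaving out *Ndufa4l2*, *Cox7a2l* and *Atp5s* kept the number of called genes at 11 and the nuclear median log2 fold change at 0.22.

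Bulk RNA-seq was made from 4 wild-type (WT) and 3 *Meioc* KO pups on a C57BL/6N background, the KO pups carrying the *Meioc*-null allele tm1.1Dpc, with 1 library from 1.5 testes of a single pup. All pups of both genotypes were synchronized in the same way. They received the retinoic acid synthesis inhibitor WIN 18,446 (0.1 mg per g body weight) daily from postnatal day 2 to day 8 and retinoic acid (0.0125 mg per g) on day 9. Testes were collected 6.75 days later. MEIOC is a germ cell protein that acts with RNA-binding partners on mRNAs at the transition from mitosis to meiosis, and the comparison asks how OXPHOS transcripts differ when it is missing. Whole testes also hold Sertoli, Leydig, peritubular, endothelial and blood cells, so the libraries are not pure germ cells.

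OXPHOS complexes sit in the inner mitochondrial membrane. Complexes I, III and IV pass electrons from NADH to oxygen and pump protons, and complex V, the ATP synthase, uses the returning protons to make ATP. All but complex II are built from subunits of both genomes: the mitochondrial subunits form part of the catalytic core in the membrane and are transcribed together from mitochondrial DNA, while the other subunits are made in the cytosol and imported. Spermatogonia and early spermatocytes are known to change their reliance on mitochondrial metabolism as they enter meiosis, and the testis expresses its own isoforms of several subunits.

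Libraries held 12537852 to 20552702 estimated counts, and 13630 genes with a TPM (the authors' abundance per transcript length) of at least 1 in 3 of the 7 libraries were tested. Levels are given as CPM, a library's counts brought to a common library size with TMM scaling, and differences as the log2 fold change of WT over *Meioc* KO. The targeted gene *Meioc* ranged from 466 to 718 CPM in WT and from 299 to 412 CPM in *Meioc* KO (log2 fold change 0.76, edgeR adjusted p = 0.0207). A gene sum cannot separate the deleted part of the locus from the remaining transcript. Of the marker lists, 7 of 8 meiotic prophase genes and 4 of 6 germ cell genes were called higher in WT. Another germ cell gene went the other way: it had a log2 fold change of -0.76, with every WT library below every *Meioc* KO library, and was not called. Called lower in WT were 2 of 6 markers of undifferentiated spermatogonia, 1 of 8 Sertoli genes (*Gata4*) and 1 of 5 peritubular genes (*Des*). The summed meiotic prophase markers were 2362 to 3456 CPM in WT and 1060 to 1323 CPM in *Meioc* KO. Summed germ cell markers were 1840 to 2091 against 1338 to 1458 CPM, and summed undifferentiated markers 127 to 151 against 168 to 269 CPM. Markers of the somatic and blood cell types overlapped between the groups when summed, with Sertoli genes at 1011 to 1091 CPM in WT and 1055 to 1112 CPM in *Meioc* KO. None of the Leydig, endothelial, macrophage, erythroid or late germ cell markers was called by edgeR, with 2, 1, 1, 2 and 1 genes at an unadjusted p under 0.05. Those genes were lower in WT except the erythroid ones, which were higher. Summed late germ cell markers were 2.92 to 4.73 CPM in WT and 4.79 to 7.15 CPM in *Meioc* KO, without overlap, and 1 of the 6 passed the filter. *Prm1*, *Prm2* and *Tnp1* of late germ cells were at or below 3 counts in each library. In bulk tissue, fewer cells of a type and less RNA per cell cannot be told apart. The part that these marker differences have in the OXPHOS results was not tested.

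In WT testes 11 nuclear OXPHOS genes were higher, by 1.27- to 2.19-fold, and edgeR called no mitochondrial gene in either direction with all 7 libraries. Of the 89 members that passed the TPM filter, 11 were called higher in WT and 0 lower by edgeR (adjusted p under 0.05), against 7.77% of all tested genes called higher and 3.33% called lower. At an unadjusted edgeR p under 0.05 there were 30 members higher and 0 lower, beside 2373 higher and 1760 lower of all 13630 tested genes. DESeq2 called 16 members higher, *mt-Nd3* among them, and 0 lower, beside 1456 higher and 875 lower over all genes. All 11 called genes were nuclear, which is 14.1% of the 78 nuclear members tested. The median log2 fold change was 0.22 over the nuclear members, 0.01 over the 11 mitochondrial members tested and -0.01 over all genes. Fold changes were above 0 in 71 of 78 nuclear members. In 28 of the 78 (35.9%) every WT library was above every *Meioc* KO library, a pattern seen in 15.4% of all tested genes. On the scale of TPM the median of all genes shifted to -0.23, and there the nuclear median was -0.02, still 0.20 above all genes.

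The medians of the nuclear complexes lay between 0.16 and 0.27, and differences between complexes were not tested. Complex III had a median of 0.27 with 3 of 8 genes called, complex I 0.22 with 5 of 37 called, complex V 0.18 with 2 of 17 called and complex IV 0.16 with 1 of 16 called. Each nuclear gene of complexes I and III had a fold change above 0 in counts, while 4 of complex IV and 3 of complex V were below 0. On the TPM scale 36 of 37 complex I genes and 8 of 8 complex III genes were above the median of all genes, with 16 and 4 above 0. Removing each library's trend with transcript length lowered the medians to 0.11 for complex I, 0.12 for complex III, 0.11 for complex V and -0.02 for complex IV, so the complex IV direction flipped there.

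**Figure D1:**
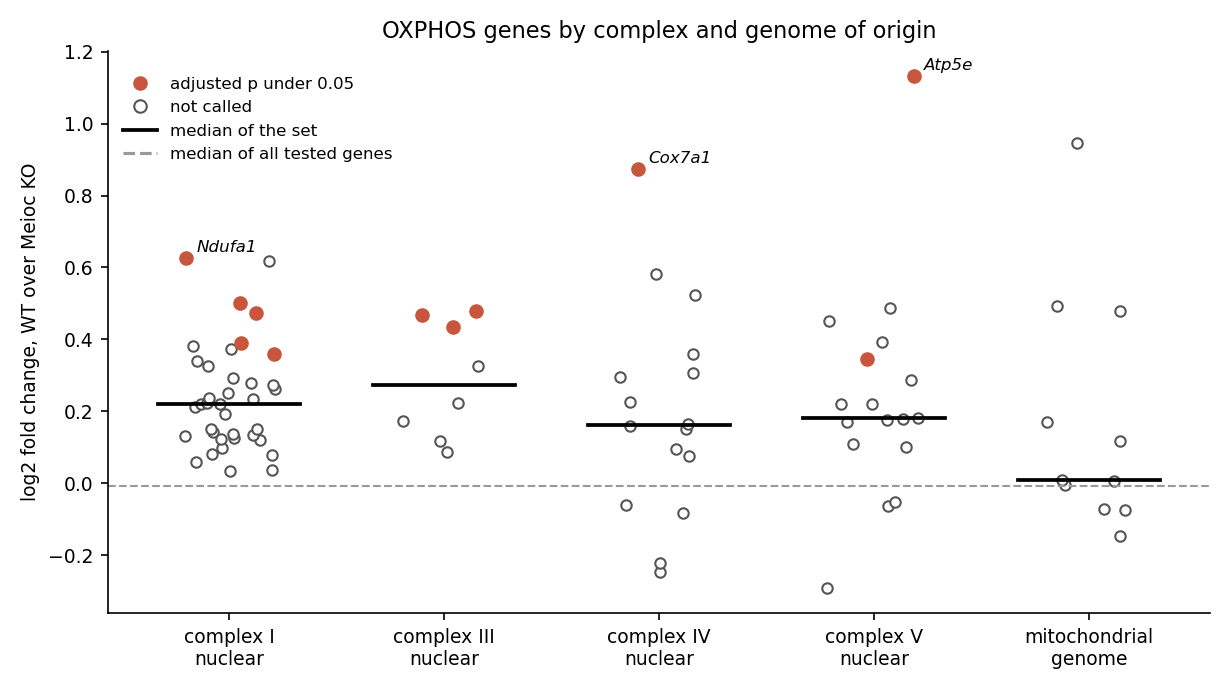
Log2 fold change of WT over Meioc KO (vertical axis) for the 89 tested OXPHOS genes, by complex and genome of origin; each point is a gene, filled points have an edgeR adjusted p under 0.05, black bars are set medians and the dashed line is the median of all 13630 tested genes. The 11 filled points are all nuclear and above 0, and the mitochondrial median of 0.01 lies at the dashed line; on the TPM scale the nuclear median is -0.02 against -0.23 for all genes.

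The difference rested on some pups more than others. Among the 78 nuclear members, the library of *Meioc* KO replicate 2 was the lowest of the 7 in 58, *Meioc* KO replicate 3 in 16 and *Meioc* KO replicate 1 in 0. The median deviation of a nuclear member from its mean over the 7 libraries was 0.08 to 0.11 on the log2 scale in the WT pups, and 0.04, -0.31 and -0.13 in *Meioc* KO replicates 1, 2 and 3. Over all tested genes the same median was -0.0030 to 0.010 in the WT pups, and -0.0064, -0.0037 and -0.011 in *Meioc* KO replicates 1, 2 and 3. *Meioc* KO replicate 1 was the nearest to the WT pups: every WT library exceeded it in 31 of 78 nuclear members, compared with 74 for *Meioc* KO replicate 2 and 62 for replicate 3. These counts, and those of the lowest library, were not made over all tested genes, so they have no background share beside them. All 11 called genes had *Meioc* KO replicate 1 as the highest of the *Meioc* KO libraries. Without *Meioc* KO replicate 1 there were 25 members called higher, *mt-Co3* among them, and 1 lower (*mt-Nd5*), beside 1275 higher and 837 lower over all genes. Without *Meioc* KO replicate 2 only *Cox7a1* was called and the nuclear median was 0.12, and without replicate 3 none was called by edgeR. In the fits without *Meioc* KO replicate 2 and replicate 3, the calls higher over all genes also went from 1059 to 296 and 113. Without WT replicate 1, 2, 3 or 4, there were 10, 1, 1 and 2 members called higher (1440, 254, 237 and 430 over all genes). Each of the 11 was called in 1 to 6 of these 7 fits: *Cox7a1* in 6, *Atp5e* in 3, *Atp5mpl* in 1 and the other 8 in 2.

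Complex I takes electrons from NADH, and 3 of its 5 called genes encode core subunits of the module that does so. Of its core subunits encoded in the nucleus, *Ndufs1*, *Ndufv1* and *Ndufv2*, which together carry the NADH site, the flavin and the first iron-sulfur clusters, were called. *Ndufs1* (chr1:63143596-63176833) measured 169, 189, 181 and 186 CPM in WT replicates 1 to 4 and 148, 124 and 143 CPM in *Meioc* KO replicates 1 to 3. The groups did not overlap, with means of 181 ± 9.10 (SD, n = 4) and 138 ± 12.7 CPM (SD, n = 3). The log2 fold change was 0.39 ± 0.09 (SE; edgeR adjusted p = 0.0228).

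*Ndufv1* (chr19:4007384-4012806), the flavin-binding subunit, measured 105, 113, 122 and 116 CPM in WT and 98.3, 84.8 and 83.1 CPM in *Meioc* KO (log2 fold change 0.36 ± 0.09, edgeR adjusted p = 0.0335). *Ndufv2* (chr17:66078638-66101559) measured 135, 152, 136 and 131 CPM in WT and 111, 78.0 and 105 CPM in *Meioc* KO (0.50 ± 0.12, edgeR adjusted p = 0.0304). In both genes all 4 WT pups were above all 3 *Meioc* KO pups, and for *Ndufv1* the nearest pups of the groups were 105 and 98.3 CPM. The core subunits *Ndufs7*, *Ndufs8* and *Ndufs3*, of the part that passes electrons on toward ubiquinone, were not called. Their log2 fold changes were 0.24 for *Ndufs7* (edgeR adjusted p = 0.126), 0.19 for *Ndufs8* (0.192) and 0.12 for *Ndufs3* (0.405). In *Ndufs7* and *Ndufs8* all WT pups were also above all *Meioc* KO pups. The nearest pups were 26.8 and 26.4 CPM for *Ndufs7* and 72.7 and 71.4 CPM for *Ndufs8*. In *Ndufs3* the groups overlapped, and 49.3% of its 31-base words also occur in transcripts of other genes. Whether the subunits of the NADH module differ from these was not tested.

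Among the accessory subunits of complex I, which surround the core, *Ndufa1* and *Ndufa12* were called. *Ndufa1* (chrX:37187588-37191163), a small X-linked subunit of the membrane arm, measured 14.5, 14.3, 15.4 and 16.3 CPM in WT and 10.8, 8.52 and 10.03 CPM in *Meioc* KO. With 1.54-fold more in WT (log2 fold change 0.63 ± 0.12, edgeR adjusted p = 0.0180), it had the largest difference among the called complex I genes. *Ndufa12* (chr10:94198720-94221443) measured 80.9, 87.5, 83.5 and 83.4 CPM in WT and 69.0, 51.3 and 60.7 CPM in *Meioc* KO (0.47 ± 0.10, edgeR adjusted p = 0.0220). Of its 31-base words, 29.3% also occur in transcripts of other genes. It was also the most abundant nuclear gene of complex I per length in WT, at 471 ± 21.7 TPM (SD, n = 4). In *Meioc* KO it stood at 406 ± 33.4 TPM (SD, n = 3), level with *Ndufb9* at 406 ± 7.09 TPM. At the other end, *Ndufb9* (log2 fold change 0.03, edgeR adjusted p = 0.831) and *Ndufs6* (0.04, edgeR adjusted p = 0.884) had the smallest values of complex I. *Ndufa4l2*, an isoform related to *Ndufa4*, was near the detection limit with 0.855 to 1.55 CPM in WT and 0.578 to 0.799 CPM in *Meioc* KO, and was not called (0.62 ± 0.34, edgeR adjusted p = 0.244).

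Complex III passes electrons from ubiquinol to cytochrome c, and 3 of its 8 nuclear genes were called. *Uqcrc2* (chr7:120635176-120659524), a core protein on the matrix side, measured 166, 184, 186 and 196 CPM in WT and 154, 115 and 138 CPM in *Meioc* KO (log2 fold change 0.43 ± 0.11, edgeR adjusted p = 0.0317). *Uqcrh* (chr4:116066965-116075071), the hinge protein beside cytochrome c1, measured 45.0, 49.9, 52.9 and 47.2 CPM in WT and 40.2, 32.6 and 32.1 CPM in *Meioc* KO (0.48 ± 0.10, edgeR adjusted p = 0.0228). *Uqcr11* (chr10:80402997-80406830), a very small subunit, measured 33.3, 31.4, 32.3 and 30.3 CPM in WT and 27.5, 21.3 and 20.1 CPM in *Meioc* KO (0.47 ± 0.12, edgeR adjusted p = 0.0366). In all 3 genes the pups of the genotypes did not overlap. The Rieske iron-sulfur protein gene *Uqcrfs1*, whose product carries the first electron out of ubiquinol, had the lowest value of complex III at 0.09 ± 0.07 (edgeR adjusted p = 0.464), with 41.3 to 42.7 CPM in WT and 38.6 to 41.4 CPM in *Meioc* KO. *Uqcrb*, the most abundant per length at 654 ± 96.8 TPM in WT (SD, n = 4), had 0.12 ± 0.12 (edgeR adjusted p = 0.532). Its counts are uncertain, since 54.3% of its 31-base words also occur in transcripts of other genes.

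Complex IV, cytochrome c oxidase, is the complex with the most tissue isoforms, and the one called gene was an isoform. *Cox7a1* (chr7:30184144-30186078), known as the heart and muscle form of subunit VIIa, measured 22.1, 22.6, 25.1 and 22.2 CPM in WT and 14.6, 9.82 and 13.0 CPM in *Meioc* KO. This was a 1.83-fold difference (log2 fold change 0.87 ± 0.14, edgeR adjusted p = 0.0113), and it was called in 6 of 7 fits that each left out 1 library, the most of any of the members, with an edgeR adjusted p of 0.0530 without *Meioc* KO replicate 3. The other form, *Cox7a2*, measured 61.2 to 70.1 CPM in WT and 42.1 to 60.3 CPM in *Meioc* KO (0.31 ± 0.12, edgeR adjusted p = 0.119), and *Cox7a2l* had 0.10 ± 0.10 (0.539). Per length *Cox7a1* was the higher of both forms in WT (432 ± 21.4 TPM against 237 ± 30.2 TPM; SD, n = 4), and its effective length of 78.0 bases is far shorter than the 416 bases of *Cox7a2*.

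Of the other paralog sets of complex IV, those of *Cox4i*, *Cox6b* and *Cox8* had more of the widely expressed form per length, while the forms of *Cox7b* lay closer together. *Cox4i1* stood at 399 ± 52.6 TPM in WT and *Cox4i2* at 2.68 ± 0.27 TPM. *Cox6b1* stood at 1037 ± 75.9 TPM and *Cox6b2*, a testis form, at 24.5 ± 7.51 TPM. *Cox8a* stood at 148 ± 12.6 TPM and *Cox8c*, also a testis form, at 2.23 ± 2.82 TPM (SD, n = 4). *Cox7b* stood at 55.5 ± 7.26 TPM in WT and its testis form *Cox7b2* at 39.1 ± 7.17 TPM (SD, n = 4). *Cox7b2* measured 5.32 to 6.78 CPM in WT and 3.03 to 4.66 CPM in *Meioc* KO without overlap, a log2 fold change of 0.52 ± 0.19 that was not called (edgeR adjusted p = 0.106). *Cox7b* had -0.08 ± 0.14 (0.714), *Cox4i2* 0.58 ± 0.35 (0.287), *Cox6b2* -0.06 ± 0.26 (0.893) and *Cox8c* -0.25 ± 0.81 (0.860). *Cox8a* had 33.2 to 39.3 CPM in WT and 38.5 to 49.8 CPM in *Meioc* KO (-0.22 ± 0.11, edgeR adjusted p = 0.212). It was called lower in WT once the length trend was removed and on the TPM scale. *Cox6c* was the most abundant nuclear member per length at 2106 TPM in WT and 2302 TPM in *Meioc* KO, and was not called in counts (0.15 ± 0.12, edgeR adjusted p = 0.422). *Cox6a2*, with 1 to 5 counts per library, and *Cox8b*, with 0 counts in every library, did not pass the filter. Both are known as muscle forms. A count of 0 allows a level of up to 3 counts, which is 0.146 to 0.240 CPM in these libraries, for counting error only.

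Complex V makes ATP, and its 2 called genes encode small subunits. *Atp5e* (chr2:174461072-174464105), the epsilon subunit of the catalytic head, measured 16.7, 14.5, 15.8 and 10.3 CPM in WT and 8.73, 4.98 and 5.70 CPM in *Meioc* KO. At 2.19-fold this was the largest difference among the called members (log2 fold change 1.13 ± 0.23, edgeR adjusted p = 0.0194), although WT replicate 4 at 10.3 CPM lay close to *Meioc* KO replicate 1 at 8.73 CPM. *Atp5mpl* (chr12:111961375-111966977), a small proteolipid of the membrane part, measured 52.6, 51.1, 52.5 and 52.6 CPM in WT and 45.8, 35.1 and 42.3 CPM in *Meioc* KO (0.34 ± 0.10). Its edgeR adjusted p of 0.0498 was no longer under 0.05 with RLE scaling, without the filter, or in 6 of 7 fits without 1 library. The genes of the large catalytic subunits were not called. *Atp5a1* measured 560 to 622 CPM in WT and 519 to 601 CPM in *Meioc* KO (0.11 ± 0.08, edgeR adjusted p = 0.384), and *Atp5b* 719 to 781 and 620 to 726 CPM (0.17 ± 0.07, 0.158). The 3 genes for the identical c-ring subunit, *Atp5g1*, *Atp5g2* and *Atp5g3*, had log2 fold changes of 0.18, 0.29 and -0.05 (edgeR adjusted p = 0.191, 0.141 and 0.838). *Atp5g2* shares 87.7% of its 31-base words with other genes and *Atp5h* 49.4%, so the counts of both are uncertain. *Atp5k*, subunit e of the membrane part, had 0.49 ± 0.31 (edgeR adjusted p = 0.310) and *Atp5h*, subunit d of the stalk and the most abundant nuclear gene of the complex per length at 793 TPM in WT, 0.22 ± 0.10 (0.190). *Atp5s* (-0.29 ± 0.20, 0.346) and *Atp5c1*, the gamma subunit that forms the rotating shaft (-0.06 ± 0.10, 0.681), were the lowest.

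**Figure D2:**
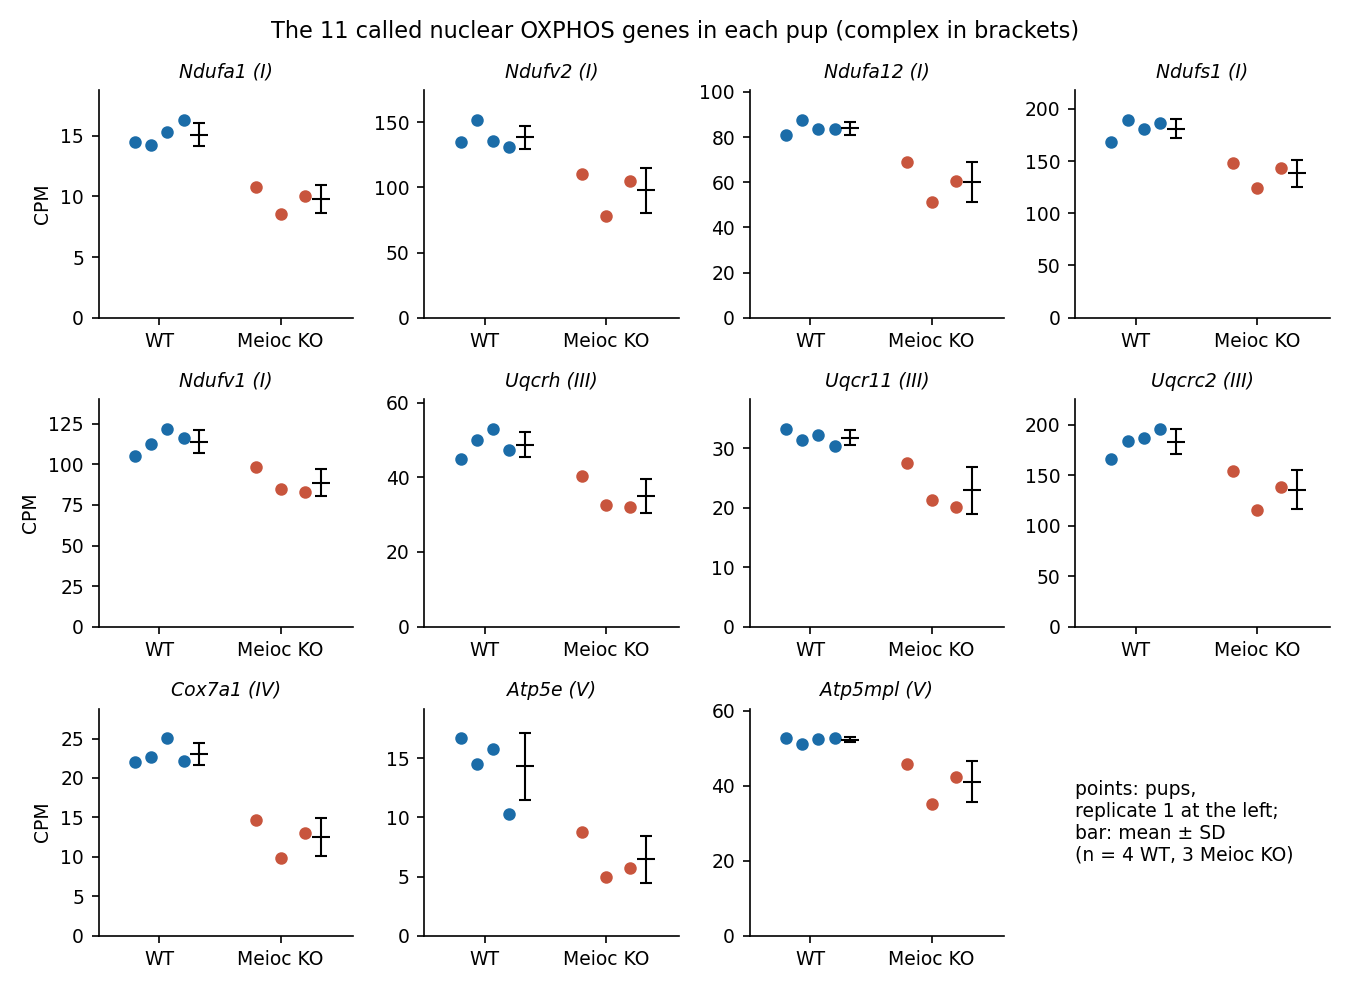
CPM (vertical axes, from 0) of the 11 called nuclear OXPHOS genes in each of 4 WT and 3 Meioc KO pups, with replicate 1 at the left of each group and bars for the mean ± SD. In each panel the WT points lie above the Meioc KO points, and Meioc KO replicate 1 is the nearest to WT.

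Promoters of nuclear OXPHOS genes are known to be rich in sites for NRF1 and for ETS-family factors such as GABP. In RefSeq windows of GRCm38.p6 from 250 bases before to 50 bases after the start site, 1 window per gene, 62 of the 78 tested nuclear members and 10637 of all tested genes could be matched. The NRF1 consensus, the ETS letters CCGGAAG and the E2F letters GGCGGGAA were searched on both strands, and no 2 of them overlapped in any window. The NRF1 letters were in 5 of 62 member windows (8.06%) and 2.09% of all, the ETS letters in 13 (20.97%) and 17.9%, and the E2F letters in 2 (3.23%) and 4.17%. Of the 8 called genes with a window, 3 held the ETS letters and none held an exact match to the others. They are shown because they are the called members with a match, with the matched letters in capitals (the reverse complement in *Atp5e* and *Uqcrh*). The windows are chr2:174464052-174464351 for *Atp5e*, chr10:80406772-80407071 for *Uqcr11* and chr4:116075021-116075320 for *Uqcrh*, each on the minus strand and written 5′ to 3′.
Atp5e: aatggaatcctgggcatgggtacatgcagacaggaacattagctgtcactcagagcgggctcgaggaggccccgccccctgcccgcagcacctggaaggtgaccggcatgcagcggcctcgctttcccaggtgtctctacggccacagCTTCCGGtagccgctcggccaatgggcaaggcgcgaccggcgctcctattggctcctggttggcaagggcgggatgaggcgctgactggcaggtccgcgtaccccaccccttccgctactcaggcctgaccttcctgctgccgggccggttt
Uqcr11: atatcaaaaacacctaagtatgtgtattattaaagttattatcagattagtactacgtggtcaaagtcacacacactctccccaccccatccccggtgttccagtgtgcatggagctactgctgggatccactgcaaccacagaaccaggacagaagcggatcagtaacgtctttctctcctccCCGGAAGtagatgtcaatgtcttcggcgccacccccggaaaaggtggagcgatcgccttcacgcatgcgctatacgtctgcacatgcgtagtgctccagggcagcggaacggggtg
Uqcrh: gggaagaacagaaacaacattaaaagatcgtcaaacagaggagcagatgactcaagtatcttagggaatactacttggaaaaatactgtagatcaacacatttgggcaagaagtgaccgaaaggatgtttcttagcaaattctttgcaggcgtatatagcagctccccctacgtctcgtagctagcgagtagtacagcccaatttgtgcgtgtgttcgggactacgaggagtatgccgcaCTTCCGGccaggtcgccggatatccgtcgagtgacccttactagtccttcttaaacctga
The genes for the factors themselves were not called: *Nrf1* had a log2 fold change of 0.27 (edgeR adjusted p = 0.0729), *Gabpb2* 0.30 (0.0755) and *Gabpa* 0.06 (0.608). These 3 genes were named after their values were seen. In the list of mitochondrial regulators, 0 of 9 tested genes were called by edgeR, with 2 higher and 1 lower at an unadjusted p under 0.05. Log2 fold changes in this list went from -0.64 to 0.30, with 6 genes above 0 and 3 below.

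Nuclear OXPHOS genes make short mRNAs, and in these libraries fold change varied with transcript length across all genes. The median effective length (the number of places a fragment can start, as estimated by the authors' quantification) was 415 bases for the nuclear members and 2811 bases for all tested genes, and 41 of 78 members were under 500 bases, compared with 638 of 13630 genes. From the shortest to the longest length decile of all genes, the median log2 fold change went from 0.16 to -0.12. The 590 other genes under 500 bases had a median of 0.19, with 12.2% called higher, beside 0.22 and 17.1% for the 41 short nuclear members. The short genes that are not members also had *Meioc* KO replicate 2 as the lowest library, with a median deviation of -0.24, against -0.03 and -0.04 in *Meioc* KO replicates 1 and 3.

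The 37 nuclear members of 500 bases or more were also short, with a median effective length of 913 bases, and had a median log2 fold change of 0.22. Of these 4 were called (*Ndufs1*, *Ndufv1*, *Ndufv2* and *Uqcrc2*), which is 10.8% beside 7.77% of all tested genes. The shortest length decile held 58 of the 78 nuclear members, whose median was 0.19 beside 0.16 for all its genes. In length deciles 2, 3 and 4, which held 8, 5 and 5 nuclear members, their medians were 0.22, 0.39 and 0.29 and those of all genes 0.07, 0.02 and 0.02. After each library's length trend was removed, 8 members were called higher, 7 of them among the 11 (*Ndufa12*, *Ndufs1*, *Ndufv1*, *Ndufv2*, *Uqcrc2*, *Cox7a1* and *Atp5e*) together with *Atp5f1*. Calls higher over all 13630 tested genes rose from 1059 to 1275 there, while those among the 89 tested members fell from 11 to 8. *Ndufa1*, *Uqcr11*, *Uqcrh* and *Atp5mpl* were no longer called. The nuclear median was then 0.09 with 52 of 78 above 0. What sets the length trend was not tested.

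**Figure D3:**
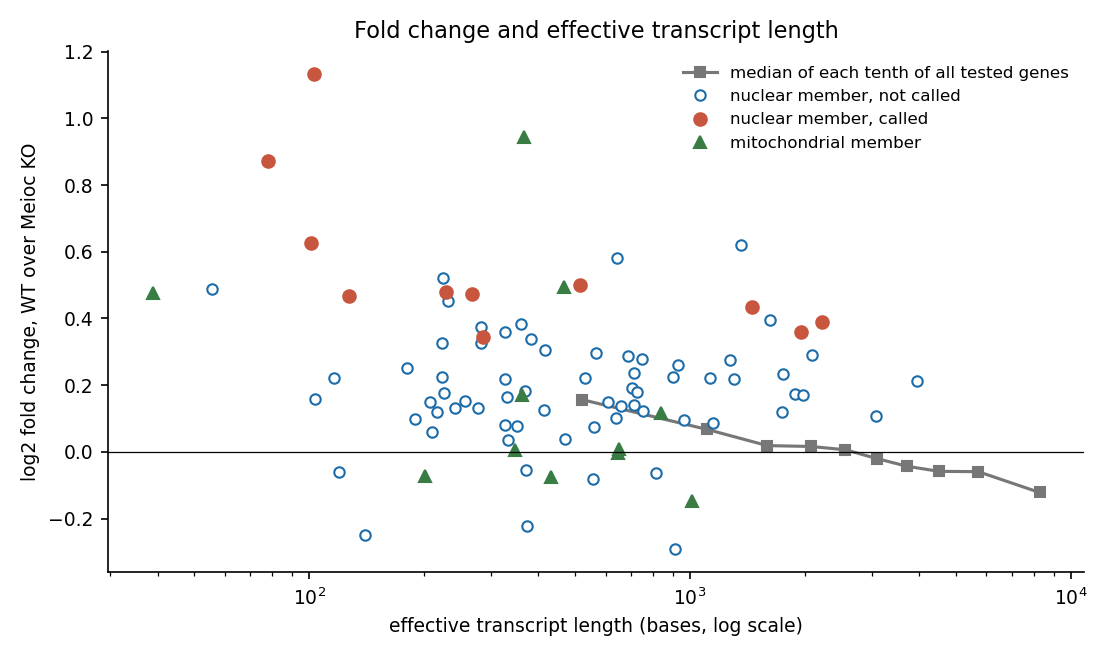
Log2 fold change of WT over Meioc KO (vertical axis) against effective transcript length in bases (horizontal axis, log scale) for the tested OXPHOS genes, with squares for the median of each length decile of all 13630 tested genes. The squares go from 0.16 to -0.12. The longest called genes (Ndufs1, Ndufv1 and Uqcrc2) lie at 0.36 to 0.43, but calling picks high values, so their place above the squares is no test. All nuclear members of length deciles 2, 3 and 4, called or not, had medians of 0.22, 0.39 and 0.29.

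Mitochondrial DNA encodes the 13 remaining members, which took between 5.22% and 6.54% of all counts across the 7 pups. Their share of all counts was 6.06%, 6.18%, 5.70% and 5.76% in WT and 5.85%, 5.22% and 6.54% in *Meioc* KO, with means of 5.92% ± 0.23 (SD, n = 4) and 5.87% ± 0.66 (SD, n = 3). The *Meioc* KO pups held both the highest and the lowest share, so the groups overlapped and their means differed by less than the spread between pups. The nuclear members held 0.666%, 0.623%, 0.620% and 0.612% of counts in WT and 0.638%, 0.513% and 0.585% in *Meioc* KO. *Meioc* KO replicate 1 lay within the WT range and the other two below it. The mitochondrial to nuclear count ratio was 9.41 ± 0.37 in WT and 10.2 ± 1.01 in *Meioc* KO, also overlapping. As shares of TPM, mitochondrial members were 14.7% ± 0.85 in WT and 16.4% ± 1.35 in *Meioc* KO and nuclear members 1.89% ± 0.14 and 1.92% ± 0.12. There the direction of both differences was opposite to that in counts, with overlapping groups.

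**Figure D4:**
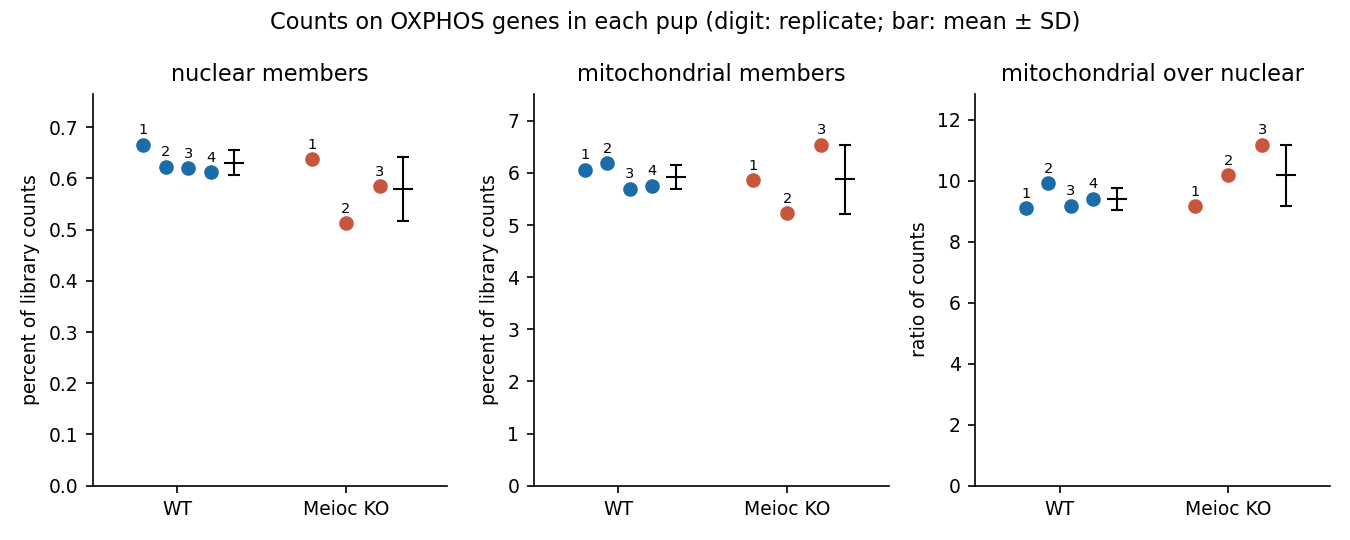
Percent of each library's counts on the 80 nuclear members (left), on the 13 mitochondrial members (middle), and the ratio of both (right); vertical axes start at 0, digits give the replicate and bars the mean ± SD. The groups overlap in each panel, and Meioc KO replicates 2 and 3 have the lowest nuclear shares, 0.513% and 0.585%.

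One transcript, *mt-Co1* (chrM:5328-6872), the catalytic subunit of complex IV, held 60.6% to 62.5% of the mitochondrial counts in WT and 58.6% to 61.4% in *Meioc* KO. It measured 37355, 39857, 36173 and 35980 CPM in WT and 34609, 29662 and 38961 CPM in *Meioc* KO (log2 fold change 0.12 ± 0.09, edgeR adjusted p = 0.386). *mt-Atp6* followed with 6820 to 7674 CPM in WT and 5576 to 7037 CPM in *Meioc* KO (0.17 ± 0.08, 0.203), and *mt-Cytb*, the one mitochondrial gene of complex III, with 4809 to 5242 and 4455 to 5818 CPM (0.01 ± 0.09, 0.955). In all 3 the groups overlapped.

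The mitochondrial subunits of complex I, which form its proton-pumping arm, were split around 0 in counts. *mt-Nd1* had a log2 fold change of 0.01 ± 0.08 (edgeR adjusted p = 0.965), *mt-Nd4* of -0.0043 ± 0.11 (0.982), *mt-Nd2* of -0.07 ± 0.08 (0.574), *mt-Nd6* of -0.07 ± 0.13 (0.737) and *mt-Nd5* of -0.15 ± 0.10 (0.352). *mt-Nd6*, the one member on the opposite strand of mitochondrial DNA, was measured at 16.8 to 24.2 CPM in WT and 19.6 to 22.5 CPM in *Meioc* KO. *mt-Nd3* was the one mitochondrial gene at an unadjusted p under 0.05: it measured 45.2, 38.6, 41.4 and 32.0 CPM in WT and 30.5, 32.2 and 21.9 CPM in *Meioc* KO (0.48 ± 0.16, edgeR adjusted p = 0.0752; DESeq2 0.0341), with WT replicate 4 just under *Meioc* KO replicate 2.

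Several mitochondrial transcripts cannot be told from nuclear copies of mitochondrial DNA. Of the 31-base words in a transcript, the length kallisto matches by default, 98.1% to 100% of those of *mt-Nd3*, *mt-Nd4l*, *mt-Atp6*, *mt-Co3* and *mt-Co2* also occur in GENCODE Basic transcripts of unprocessed pseudogenes that lie side by side on chromosome 1 in GRCm38. The share was 63.9% for *mt-Co1* and 62.8% for *mt-Nd4*, and 0% to 16.8% for the others. Aligned to its copy *Gm10925* (chr1:24613974-24614651), *mt-Atp6* was identical at 678 of 678 bases, *mt-Co2* was identical to *Gm28661* at 681 of 681 and *mt-Co3* to *Gm28437* at 783 of 783. These pseudogenes are not protein-coding and the tables analysed here hold no values for them. Levels of such genes ranged widely. Per length, *mt-Atp6* stood at 29895 ± 1126 TPM in WT (SD, n = 4), *mt-Co3* at 1261 ± 71.4 TPM and *mt-Co2* at 83.4 ± 44.8 TPM. *mt-Co2* measured 26.8, 7.87, 15.3 and 29.6 CPM in WT and 18.0, 7.30 and 5.59 CPM in *Meioc* KO (0.95 ± 0.49, edgeR adjusted p = 0.223). *mt-Co3* measured 332, 395, 410 and 421 CPM against 446, 234 and 150 CPM (0.49 ± 0.29, 0.282). How reads divided between these genes and the copies was not tested. Over the 5 tested mitochondrial genes with at most 20% of words shared, the median log2 fold change was -0.07, and over the 63 such nuclear members it was 0.22 with 10 called.

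**Figure D5:**
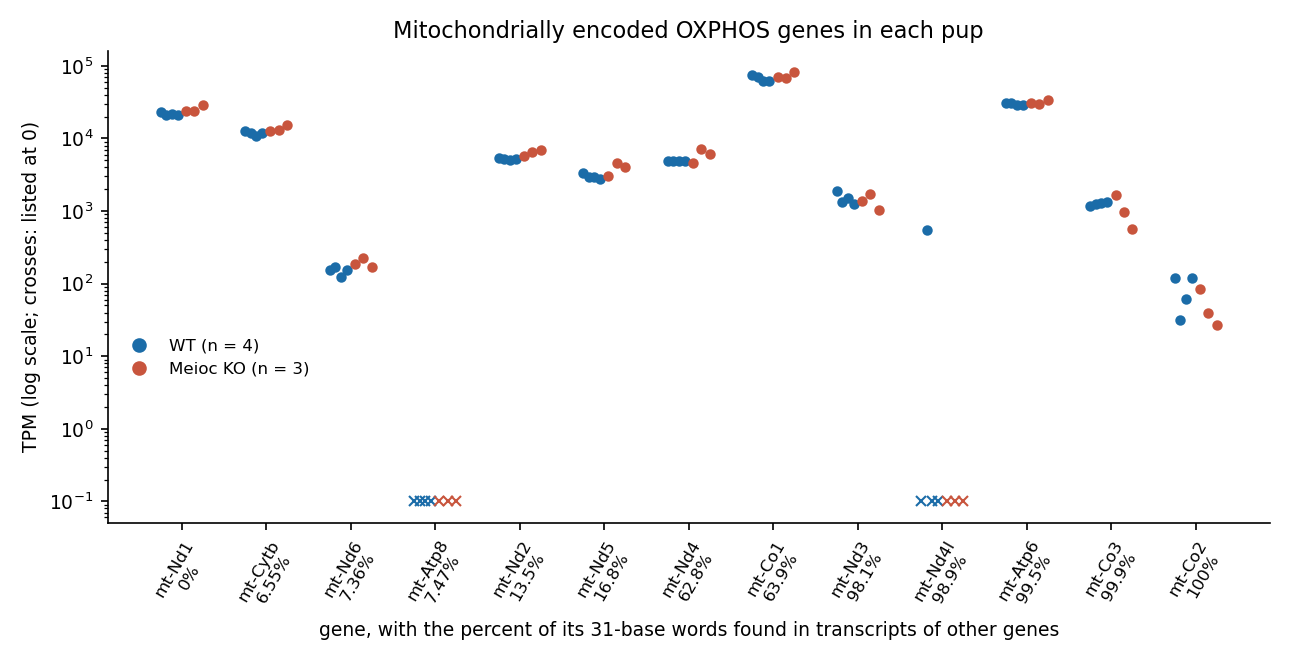
TPM (vertical axis, log scale) of the 13 mitochondrial members in each WT and Meioc KO pup, ordered by the percent of 31-base words that also occur in transcripts of other genes, printed under each name; crosses stand for pups in which a gene is listed at 0. mt-Co2, with 100% of words shared, lies at 26.5 to 121 TPM, mt-Nd1, with 0%, at 21010 to 29134 TPM, and mt-Atp8 is at 0 in each pup.

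The sequences of 3 such genes are shown because they bear on what could be counted. *mt-Atp8* (chrM:7766-7969, plus strand, 204 bases) had 0 counts in all 7 libraries and an effective length of 7.55 bases, and its last 43 bases, in capitals, are also the first bases of *mt-Atp6*. *mt-Nd4l* (chrM:9877-10173, plus strand, 297 bases) had 105 counts in WT replicate 2 and 0 in the other libraries; it is identical to *Gm10222* (chr1:24612407-24612700, minus strand) at 294 of 294 bases, so no base is in capitals. *mt-Nd3* (chrM:9459-9806, plus strand, 348 bases) differs from *Gm28438* (chr1:24612775-24613119, minus strand) at 1 of 345 bases, which is in capitals in the first 120 bases printed here (chrM:9459-9578). They were read from GENCODE vM21 transcripts on GRCm38 and are written 5′ to 3′.
mt-Atp8: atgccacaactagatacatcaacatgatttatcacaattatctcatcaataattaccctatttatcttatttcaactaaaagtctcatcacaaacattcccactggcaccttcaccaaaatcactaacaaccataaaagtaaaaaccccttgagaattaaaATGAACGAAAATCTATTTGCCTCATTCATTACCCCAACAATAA
mt-Nd4l: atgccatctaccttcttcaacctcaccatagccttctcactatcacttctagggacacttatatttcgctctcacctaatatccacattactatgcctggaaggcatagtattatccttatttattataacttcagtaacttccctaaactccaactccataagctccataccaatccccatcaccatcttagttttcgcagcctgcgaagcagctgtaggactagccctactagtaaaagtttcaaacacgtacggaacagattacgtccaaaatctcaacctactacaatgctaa
mt-Nd3: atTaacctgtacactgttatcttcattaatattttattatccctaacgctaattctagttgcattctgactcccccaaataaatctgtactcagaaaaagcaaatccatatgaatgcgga
A gene listed at 0 in such tables can be a failed estimate, and *mt-Atp8* shares its RNA with the abundant *mt-Atp6*. No fold change is given for *mt-Atp8* or *mt-Nd4l*.

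Genes that work with OXPHOS were read from the same fit. Complex II and cytochrome c, the other carriers of the chain (*Sdha*, *Sdhb*, *Sdhc*, *Sdhd*, *Cyc1*, *Cycs* and *Cyct*), had 0 of 7 genes called by edgeR, 2 higher and 0 lower at an unadjusted p under 0.05, and a median of 0.16. Assembly factors of complex I, a list that also held the subunit gene *Ndufab1*, had 1 of 17 genes called higher (median 0.15), which was *Ecsit* (0.80 ± 0.19, edgeR adjusted p = 0.0294). Of complex III 2 of 6 were called higher (median 0.11). *Bcs1l*, which inserts the Rieske protein, measured 21.7 to 27.4 CPM in WT and 15.9 to 16.6 CPM in *Meioc* KO (0.59 ± 0.11, edgeR adjusted p = 0.0162). *Uqcc2*, which acts on cytochrome b, measured 22.7 to 30.2 and 15.8 to 19.3 CPM (0.55 ± 0.13, edgeR adjusted p = 0.0283). Of complex IV 0 of 19 were called higher and 1 lower (median 0.08), *Cox18* (-0.52 ± 0.12, edgeR adjusted p = 0.0304), which inserts part of *mt-Co2*'s protein into the membrane. Of complex V 1 of 4 was called higher (median 0.29), *Atpaf2* (0.50 ± 0.11, edgeR adjusted p = 0.0235), a chaperone of the catalytic head. The complex V list also held the ATPase inhibitor gene *Atpif1*, which was not called.

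The machinery that expresses mitochondrial DNA was mixed, with 1 of 23 genes called higher (*Tfb1m*, 0.53 ± 0.12, edgeR adjusted p = 0.0253), 1 lower (*Ssbp1*, -0.39 ± 0.11, 0.0465) and a median of 0.07. *Tfb1m* methylates mitochondrial ribosomal RNA and *Ssbp1* binds single-stranded mitochondrial DNA. The tricarboxylic acid cycle list had 1 of 18 higher and 1 lower with a median of 0.10. *Pdha2*, the testis-specific form of a pyruvate dehydrogenase subunit, measured 10.2 to 13.6 CPM in WT and 4.41 to 5.32 CPM in *Meioc* KO (1.23 ± 0.16, edgeR adjusted p = 0.00515) and was called in 7 of 7 fits without 1 library. *Mdh2* measured 77.6 to 90.5 CPM in WT and 107 to 118 CPM in *Meioc* KO (-0.39 ± 0.08, 0.0199).

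Ribosomal protein genes, which also make short and abundant mRNAs, were read from the same fit, in which 7.77% of all tested genes were called higher. Of 78 mitochondrial ribosomal protein genes 7 were called higher, a share near that of all genes, and 0 lower, with a median of 0.19 and 66 above 0. *Mrpl17* (0.71, edgeR adjusted p = 0.0194) and *Mrps18c* (0.51, 0.0286) were the highest of those called. Of 80 cytosolic ribosomal protein genes 17 were called higher and 0 lower, with a median of 0.24 and 77 above 0, led by *Rps18* (1.27, edgeR adjusted p = 0.0365) and *Rpl36* (0.73, 0.0180). Summed, the cytosolic ribosomal genes were 25902 to 29141 CPM in WT and 20433 to 24346 CPM in *Meioc* KO. Every WT library was above every *Meioc* KO library in 35 of the 78 mitochondrial and 41 of the 80 cytosolic ribosomal genes. The same held for 28 of the 78 nuclear OXPHOS members and 15.4% of all tested genes. No test was made of whether the OXPHOS genes differ from either list. Of the called genes named from these lists, *Bcs1l* was called in 5 of 7 fits without 1 library and those other than *Pdha2* and *Bcs1l* in 2 or 3.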

How the data were processed

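Whole testes enriched for preleptotene cells, from 4 WT and 3 *Meioc* KO pups, were profiled by bulk RNA-seq (stranded total RNA with rRNA removed, 50-base single-end reads), and samples were grouped by the genotype in their labels. The authors trimmed reads with cutadapt 1.8 and ran kallisto 0.44.0 with bias correction and strand on all GENCODE Basic vM15 transcripts (mm10). They then kept protein-coding transcripts: the deposited estimated counts are not normalized across libraries, and the deposited TPM (abundance per transcript length, renormalized by the authors over protein-coding transcripts) keeps no depth.

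Transcripts were matched to GENCODE vM21 genes and both values were summed by gene. Of 43139 transcripts, 119 had no match (0.247% to 0.282% of a library's counts) and were left out. Counts were rounded and tested with edgeR 4.0.16 (TMM, quasi-likelihood F test, R 4.3.3, no covariate), with Benjamini-Hochberg adjustment over 13630 genes with TPM of at least 1 in 3 of 7 libraries; each standard error was derived from the log2 fold change and its F value. DESeq2 1.42.0, limma 3.58.1 on log2(TPM + 1) or log2(TPM + 0.1), other scalings and filters, a length correction, a replicate block and leaving out each library were alternatives. On simulated counts for 13630 genes, 185 of 200 altered genes were found by edgeR beside 22 false calls. These false calls were a larger share of the calls than the adjusted p threshold aims for. With no gene altered, 0 calls were made. Recovery at differences as small as those of most OXPHOS members was not tested, so the simulation does not give the power for them. Each pup is 1 library, so p-values rest on the spread between pups, 4 against 3. Intervals and floors (3 counts) cover counting error only.

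The named genes are all mitochondrial members, per complex the 2 highest and 2 lowest nuclear fold changes and the most abundant gene, the nuclear core subunits, paralog sets, all called or filtered-out members, up to 2 called genes per direction of each pathway list, and *Meioc*. A gene under this rule is not reported here. Members, lists and the naming rule were chosen with earlier results of these data known, so no list was tested as a set. Shared 31-base words were counted against GENCODE vM21 Basic transcripts, a later version than the authors indexed. Promoter windows are from RefSeq (GRCm38.p6), where 1 window per gene was the first listed.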

Additional observations from a re-analysis of the deposited data

Results flagged for a closer look

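Among 59 sets of the 4 WT values, 7 had 1 library far from the others. For independent sets, chance gives about 1 in 20. These sets share the same 4 libraries and some rest on few counts, so an excess over that rate was not tested. *Atp5mpl*, a called gene, had its lowest WT value in replicate 2, at 51.1 CPM against 52.5 to 52.6 CPM in the others, and this value was still above the 3 *Meioc* KO pups. *Atp5g3* was highest in WT replicate 1 at 22.9 CPM, with the others at 20.9 to 21.2 CPM. *mt-Nd5* was lowest in WT replicate 4 at 1916 CPM, with the others at 2025 to 2046 CPM. *mt-Nd4l* had 7.32 CPM in WT replicate 2 and 0 in the other WT pups. The testis isoforms *Cox8c* and *Cox6b2* had 0.552 CPM in WT replicate 1 (others 0.0674 to 0.101 CPM) and 1.62 CPM in WT replicate 3 (others 2.05 to 2.09 CPM), which are 7 and 24 counts. The share of TPM on nuclear members was 2.09% in WT replicate 1 and 1.81% to 1.83% in the other WT pups.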

How the results depend on the processing

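The 11 members called higher, all nuclear, became 16 with DESeq2 (with *mt-Nd3*), 10 with RLE scaling, with mitochondrial genes left out of library sizes, without a filter and with filterByExpr, and 8 without scaling and with the length trend removed. On log2(TPM + 1) and log2(TPM + 0.1) only 3 were called (*Ndufa1*, *Cox7a1* and *Atp5e*), and leaving out 1 library gave 0 to 25, the 25 with *mt-Co3* among them. Over all genes the calls higher, 1059 as reported, were 1456 with DESeq2, 814 without scaling and 1275 with the length trend removed. They were 440 and 443 on the 2 TPM scales, and 113 to 1440 without 1 library (1275 in the fit with 25 members). Calls lower in WT, 0 in the edgeR test as reported, were 1 with the length trend removed (*Cox8a*), 1 on log2(TPM + 1) (*Cox8a*), 2 on log2(TPM + 0.1) (*Cox8a* and *mt-Nd2*) and 0 to 1 without 1 library. In the same order, calls lower over all genes were 454, 598, 2082, 2063 and 18 to 837. The nuclear median of 0.22 was 0.14 without scaling, 0.095 with the length trend removed, and -0.022 on log2(TPM + 1) and on log2(TPM + 0.1), and ranged from 0.12 to 0.28 without 1 library. Set against the median of all genes in the same setting, it was 0.11 to 0.25 under the scalings, units and filters tried. The mitochondrial median of 0.01 was -0.066 without scaling, -0.12 with the length trend removed, -0.21 on both TPM scales, 0.062 without a filter (which lets in *mt-Nd4l*), -0.073 over genes with at most 20% of words shared, an alternative chosen after the data were seen, and -0.0028 to 0.13 without 1 library. The WT minus *Meioc* KO difference in share was 0.0516 percentage points of counts for nuclear and 0.0518 for mitochondrial members, and -0.0313 and -1.64 percentage points of TPM. Apart from the alternatives' own construction (fewer libraries, other units), the causes of these changes were not tested.

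Replicate numbers did not pair the pups: same-numbered WT and *Meioc* KO libraries had correlations of deviations of -0.01, -0.09 and -0.17. With the replicate block 1 member was called higher (*Atp5e*) and 0 lower, and calls higher over all genes went from 1059 to 94. Of 1138 values of 67 named genes under the alternatives, 949 kept their direction and side of the threshold. Among the values, 178 of called genes were no longer called, 11 were newly called and 0 called values changed sign, while 91 uncalled values did. Depth limits genes of few counts: *Cox8c*, *Cox6a2*, *Cox4i2* and *Ndufa4l2* had 1 to 26 counts per library.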
